A study of Homo sapiens with 6 samples.

Results

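The genes described here encode the proteins of the mitochondrial ribosome. They were chosen by name, as each gene whose platform annotation symbol begins with MRPL or MRPS followed by a digit, with pseudogenes left out. The rule gave 76 of the 20037 genes that the annotation names, 50 of the large subunit and 26 of the small subunit (MRPS18A and MRPS30, despite their names, belong to the large one). The antisense RNAs of MRPL20 and MRPL23 share the pattern of letters but encode no ribosomal protein, and were not counted. The 76 genes were read by 110 probes, and 103 of these exceeded background on 3 or more of the 6 arrays. All 76 genes were measured, each with a used probe that was detected on all 6 arrays.

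The mitochondrial ribosome translates the few messenger RNAs encoded by mitochondrial DNA, all of which specify membrane subunits of the respiratory chain and ATP synthase. Its RNAs are made inside the organelle, whereas its proteins are encoded in the nucleus, made in the cytosol and imported. Some of these proteins descend from the bacterial ribosome and others were gained in the mitochondrial lineage. The large subunit holds the catalytic site, the exit tunnel, the stalks and the central protuberance, and the small subunit holds the decoding center.

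RNA was compared between HCT116 cells, a human colorectal carcinoma line, with intact PTTG1 (PTTG1+/+, labelled WT) and HCT116 cells in which PTTG1 had been knocked out by homologous recombination (PTTG1-/-, labelled PTTGKO), 3 samples of each, under standard culture with no other treatment. PTTG1 encodes securin, the inhibitor of separase. Each sample was hybridised to an Illumina beadchip of 1 colour, where a probe grows brighter with the amount of its transcript. Neither the number of cultures behind the samples nor whether the knockout line is 1 clone is given in the sources used here. The p-values therefore cover just the scatter among these 6 arrays, which may be technical, and loss of PTTG1 cannot be told apart from other differences between the lines.

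Summed intensity per array ranged from 14796418 to 16708425, and 35.7% to 37.3% of the 47310 probes were detected (detection p under 0.05). PTTG1 itself was lower at both of its probes. One went from a log2 intensity of 10.79 ± 0.05 (SD, n = 3) to a level not well above background, at least 49.3-fold lower, and the other from 12.03 ± 0.06 to 11.13 ± 0.22. Of 10 colon epithelial markers 6 were measured, with EPCAM, KRT8 and KRT19 bright in both lines and VIL1, CDX1, LGALS4 and CDH17 under the filter. The summed linear level of the 6 was 15700 to 16200 in PTTG1+/+ and 15200 to 16000 in PTTG1-/- cells, with CDH1 (-0.53, adjusted p = 0.00398) and EPCAM (-0.32, adjusted p = 0.0339) lower. The other 4 did not pass, with differences of 0.23 for KRT19, 0.06 for KRT18, 0.03 for CDX2 and -0.17 for KRT8. Of 6 fibroblast markers only COL1A1 was measured, and of 6 blood markers only CD14 and HBA1, all of them dim. The blood markers summed to 72.3 to 80.2 in PTTG1+/+ and 77.4 to 104 in PTTG1-/- cells, and HBA1 was higher (0.44, adjusted p = 0.0264). The part of these markers in the results was not tested. Over genes, 2 arrays of one line correlated at r = 0.993 to 0.996, and 2 arrays of unlike lines at 0.986 to 0.988.

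Expression of the mitochondrial ribosomal protein genes differed little between the lines. With limma and Benjamini-Hochberg adjustment over all 10642 genes tested, 1 of the 76 rose in PTTG1-/- cells (MRPL17), 1 fell (MRPL19) and 74 did not pass at an adjusted p under 0.05. That is 2.63% of the members, where 17.4% of all genes passed (9.58% higher and 7.78% lower). None of the 76 differed by 1.5-fold or more, as 406 of the 10642 genes did. Before adjustment 16 members had p under 0.05, 4 higher and 12 lower, or 21.1% beside 31.6% of all genes. In RNA of whole cultures, fewer cells that express a gene and less RNA per cell cannot be told apart.

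The small differences lay mostly on one side. The log2 difference, PTTG1-/- minus PTTG1+/+, was below 0 in 55 of the 76 genes (72.4%), beside 49.8% of all genes. Its median was -0.08 for the members and 0.001 for all genes. The quartiles of the members were -0.15 and 0.02, a width of 0.171 against 0.280 for all genes. These figures describe the list and carry no test. On each PTTG1+/+ array the median member stood above its own mean over the 6 arrays, by 0.0367, 0.0352 and 0.0511. On each PTTG1-/- array it stood below, at -0.0387, -0.0154 and -0.0391, whereas the median of all genes stayed between -0.0130 and 0.00552. Quantile normalization holds the median of all genes near 0 on each array. Deviations from a gene's own mean balance over the 6 arrays, so the values of the lines are not independent. PTTG1-/- replicate 3, whose summed intensity was the highest, was the lowest of the 6 arrays for 22 of the 76 genes, and without it the median difference was -0.0894.

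**Figure D1:**
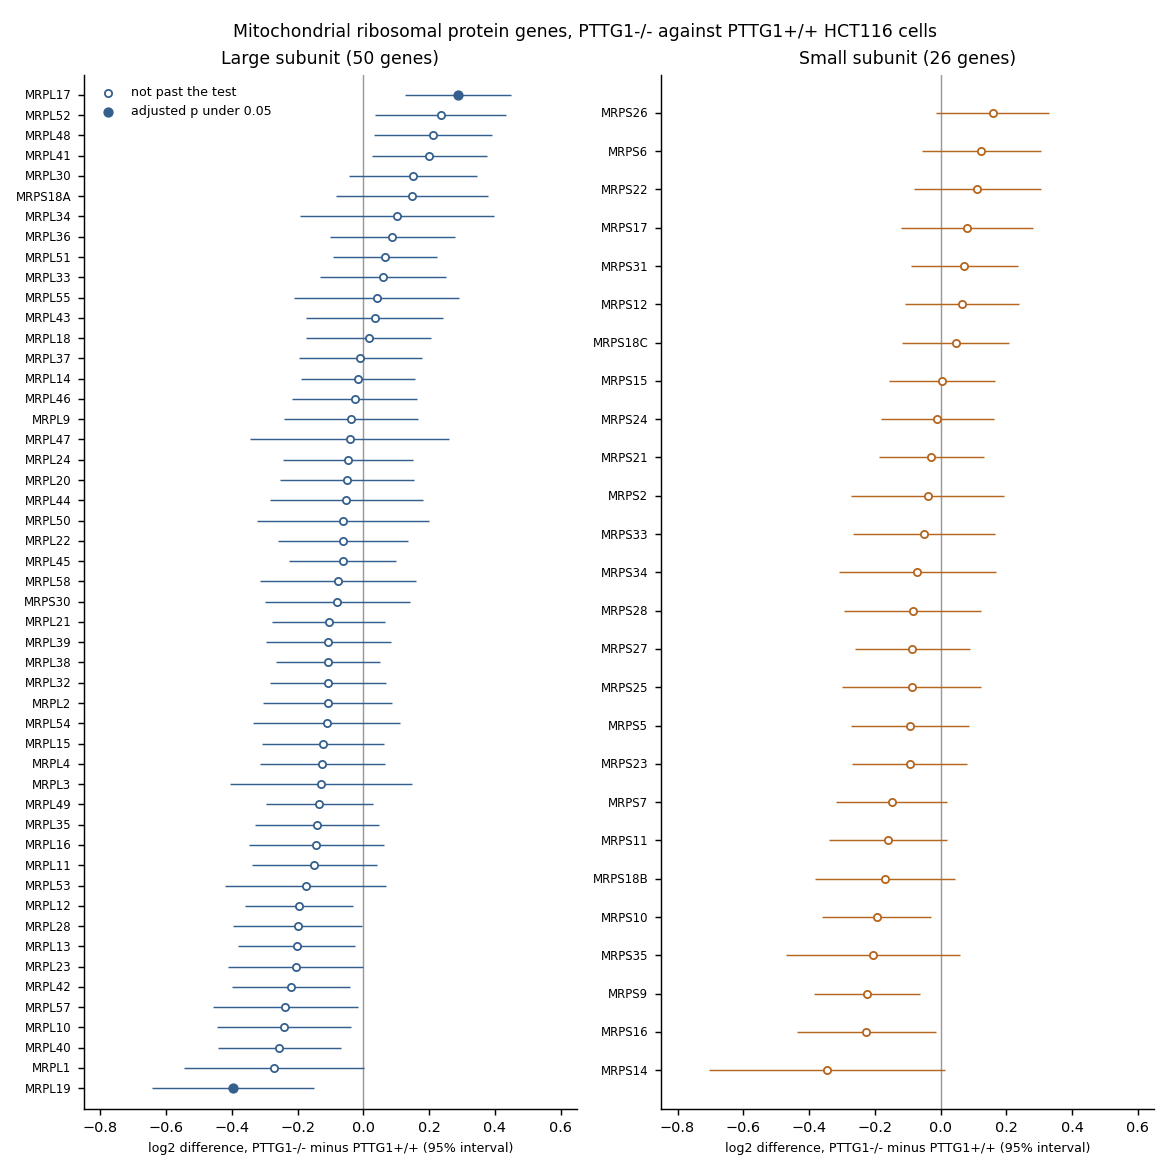
Log2 difference (x axis, PTTG1-/- minus PTTG1+/+) of each of the 76 genes, large subunit left and small subunit right, as points with 95% intervals not adjusted for the number of genes. Filled points mark MRPL17 and MRPL19, which passed the test, and 55 of the 76 points lie left of 0.

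At the probe used for each gene, the arrays were close enough to bound most of these differences, so far as the scatter among them goes. The unadjusted 95% interval had a median width of 0.382 on the log2 scale and lay inside a change of 1.5-fold in either direction for 74 of the 76 genes. The exceptions were MRPL19 (-0.64 to -0.15) and MRPS14 (-0.71 to 0.01). Further probes were not counted, and that of MRPL57 had -0.51 ± 0.09 SE when tested singly. The estimate itself was within 0.1 of 0 in 34 genes and within 0.2 in 60.

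**Figure D2:**
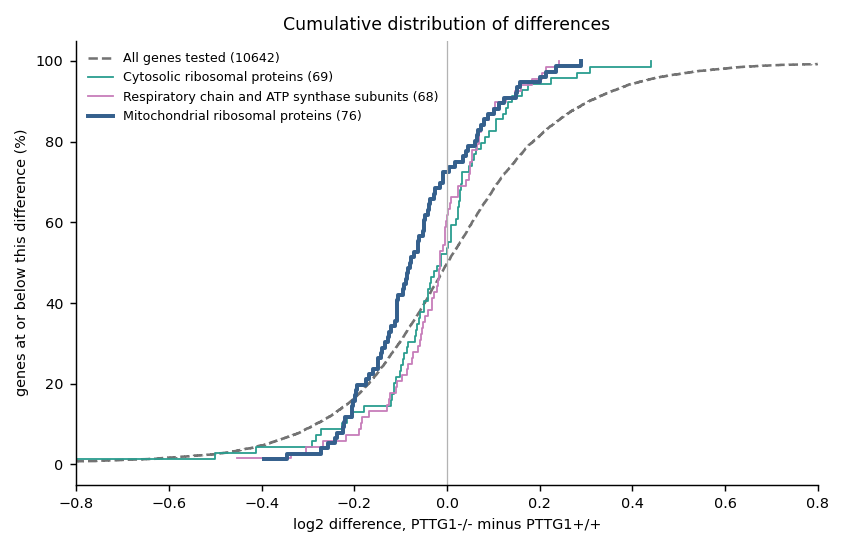
Share of genes (y axis, percent) at or below a log2 difference (x axis, PTTG1-/- minus PTTG1+/+, drawn from -0.8 to 0.8) for the 76 mitochondrial ribosomal proteins, 69 cytosolic ribosomal proteins, 68 respiratory chain and ATP synthase subunits and all 10642 genes tested. The members' median lies at -0.08 and that of all genes at 0.001.

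The families nearest in function were set beside the members. Of 69 cytosolic ribosomal protein genes 3 rose and 5 fell, their median log2 difference was -0.01, and 36 lay below 0. Of 68 genes for subunits of the respiratory chain and ATP synthase 1 fell, their median was -0.02, and 42 lay below 0. Over all genes tested 17.4% passed, 9.58% higher and 7.78% lower, and 49.8% lay below 0. Differences between these families were not tested.

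Upstream sequence is shown for both members that passed and for the next 2 by p-value, MRPS9 and MRPL40, because motifs of factors that drive nuclear mitochondrial genes were searched in it. Each line gives the 250 bases before the RefSeq start on GRCh38.p14, 5′ to 3′ along the gene, and capitals mark the matches.
MRPL17, chr11:6683341-6683590, minus strand: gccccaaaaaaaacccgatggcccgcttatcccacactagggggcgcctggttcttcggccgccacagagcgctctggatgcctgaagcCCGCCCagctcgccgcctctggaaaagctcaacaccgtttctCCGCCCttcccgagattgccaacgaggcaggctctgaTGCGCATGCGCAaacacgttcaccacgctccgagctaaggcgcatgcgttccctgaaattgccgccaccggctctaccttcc
MRPL19, chr2:75646533-75646782, plus strand: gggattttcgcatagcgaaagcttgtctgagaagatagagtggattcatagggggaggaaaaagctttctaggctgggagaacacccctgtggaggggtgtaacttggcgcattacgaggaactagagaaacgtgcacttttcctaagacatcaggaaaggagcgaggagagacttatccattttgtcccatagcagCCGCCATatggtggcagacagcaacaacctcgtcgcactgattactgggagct
MRPS9, chr2:105037819-105038068, plus strand: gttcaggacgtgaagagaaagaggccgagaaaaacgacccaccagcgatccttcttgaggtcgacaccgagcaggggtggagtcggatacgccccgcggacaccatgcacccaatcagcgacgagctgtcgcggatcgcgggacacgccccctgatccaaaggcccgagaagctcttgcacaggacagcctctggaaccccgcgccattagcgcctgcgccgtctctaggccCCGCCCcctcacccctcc
MRPL40, chr22:19432295-19432544, plus strand: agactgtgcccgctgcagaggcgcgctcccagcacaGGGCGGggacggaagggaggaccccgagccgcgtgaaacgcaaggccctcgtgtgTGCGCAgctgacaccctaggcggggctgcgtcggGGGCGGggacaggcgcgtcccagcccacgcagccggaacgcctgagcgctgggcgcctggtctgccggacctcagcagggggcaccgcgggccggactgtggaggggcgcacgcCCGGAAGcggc

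The letters searched, on both strands, were CCGGAAG for ETS factors such as GABPA, TGCGCA (its own reverse complement) for NRF1, AAGATGG and ATGGCGG for YY1 and GGGCGG for SP1. The YY1 pair shares the letters ATGG where both stand in one site. RefSeq promoters were matched by gene ID for 68 of the 76 members and set beside 15843 promoters of protein-coding genes. CCGGAAG stood in 22 of the 68 windows (32.4%, against 11.8% of all promoters) and TGCGCA in 13 (19.1%, against 9.10%). GGGCGG stood in 38, at 55.9% against 56.0%. AAGATGG and ATGGCGG stood in 7 and 5 (10.3% and 7.35%, against 3.35% and 3.09%). With the first 50 transcribed bases included, they stood in 23 and 24 (33.8% and 35.3%, against 6.40% and 7.63%). By matches before the start alone, the median log2 difference was -0.03 in members with CCGGAAG and -0.07 in those without. It was -0.06 and -0.05 for TGCGCA, and -0.0621 and -0.0558 for GGGCGG. For AAGATGG it was -0.0413 with the letters and -0.0621 without, and for ATGGCGG the medians were the same. Differences between members with and without a motif were not tested. Of the genes printed, MRPL17 held TGCGCA at 2 adjoining positions from -82 to -71 and MRPL40 held CCGGAAG from -11 to -5, counted from the start. MRPL19 held ATGGCGG on the other strand from -53 to -47. A match is a stretch of letters, not a measured binding site.

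MRPL17 and MRPL19 both encode large subunit proteins with a bacterial counterpart. MRPL17 had log2 intensities of 10.35, 10.34 and 10.37 on the PTTG1+/+ arrays, and of 10.67, 10.67 and 10.59 with PTTG1 lost. Every PTTG1-/- array lay above every PTTG1+/+ array, by more than the spread within either line. It rose 1.22-fold (log2 difference 0.29 ± 0.07 SE, adjusted p = 0.0244). Its unnormalized intensities, 1372.1, 1294.5 and 1358.8 against 1555, 1632.1 and 1756.9, did not overlap either. A two-sided exact permutation over the arrays gave p = 0.1, the smallest that 3 against 3 allows.

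MRPL19 had log2 intensities of 8.52, 8.52 and 8.17 in PTTG1+/+ and 8.09, 7.91 and 8.02 in PTTG1-/- cells. PTTG1+/+ replicate 3 lay well below the other two and close to the PTTG1-/- arrays, though the lines did not overlap. It fell 1.32-fold (log2 difference -0.40 ± 0.11 SE, adjusted p = 0.0365), and its exact permutation p was also 0.1. Its unnormalized intensities did overlap, at 417.9, 389 and 325.1 against 295.4, 278.1 and 334.3. Both calls stood near the threshold. MRPL17 passed under 10 of 18 alternatives (adjusted p 0.00452 to 0.0919) and MRPL19 under 8 of 18 (0.0113 to 0.153), without a change of sign.

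**Figure D3:**
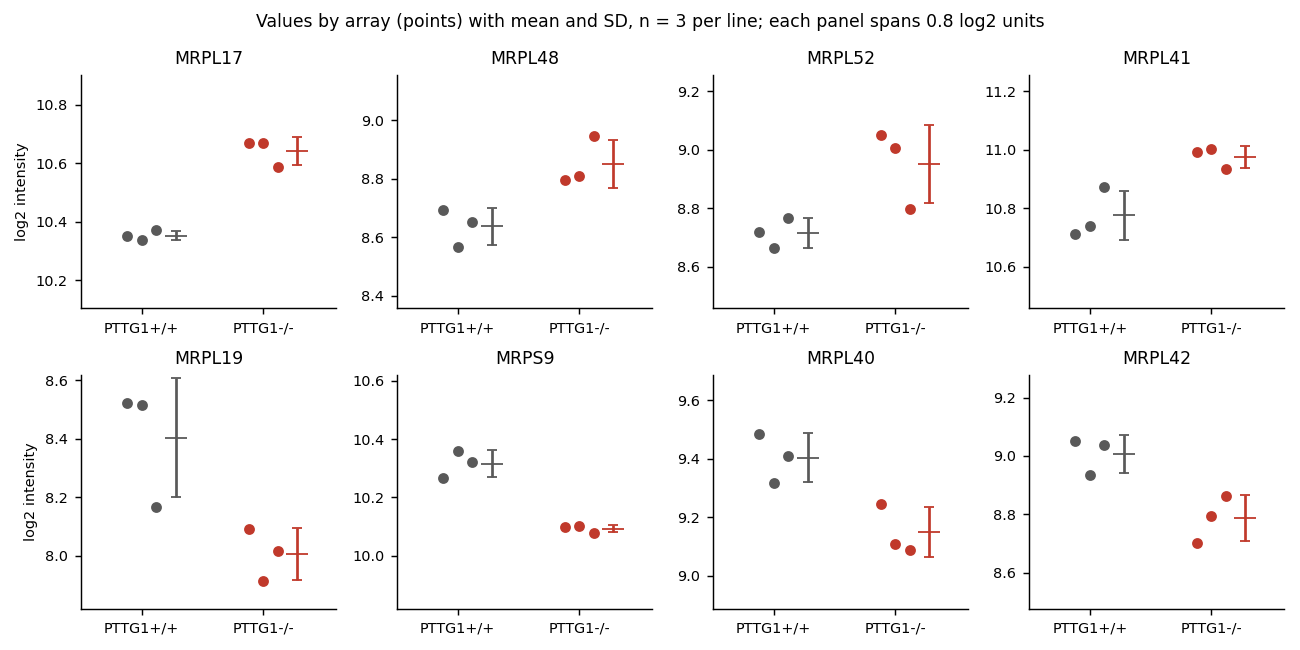
Log2 intensity (y axis, 0.8 units in each panel) of 8 members by array, PTTG1+/+ in gray and PTTG1-/- in red, with the mean and SD of 3 arrays beside the points. The genes were picked by p-value, as the 4 smallest of each direction. The upper row holds those with higher and the lower row those with lower values in PTTG1-/- cells. Of these MRPL17 and MRPL19 passed the test.

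Of the 50 large subunit genes 37 had a difference below 0, with a median of -0.08. Arrays of the lines did not overlap for 17 of them, 12 with PTTG1-/- below and 5 above. Over all members it was 25 (32.9%, beside 36.1% of all genes tested), with 17 below (22.4%, beside 16.7%) and 8 above (10.5%, beside 19.5%). Members named from here on, other than MRPL1, MRPL10, MRPL17, MRPL19, MRPL40, MRPS14 and those whose probes disagree, were chosen after their values were seen.

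Genes of both stalks had differences below 0, none of them past the test in the main setting. MRPL1, of the mobile stalk where spent transfer RNA leaves, had 9.57, 9.22 and 9.18 in PTTG1+/+ and 8.88, 9.12 and 9.15 in PTTG1-/- cells. The lines did not overlap, but PTTG1+/+ replicate 1 stood well above the rest and the gene did not pass (log2 difference -0.27 ± 0.12 SE, adjusted p = 0.159). MRPL10 and MRPL12 form the stalk that recruits translation factors. MRPL10 had 8.49, 8.33 and 8.35 against 8.01, 8.21 and 8.23 (log2 difference -0.24 ± 0.09 SE, adjusted p = 0.0986). MRPL12 had 10.94, 10.91 and 10.95 against 10.67, 10.77 and 10.78 (log2 difference -0.20 ± 0.07 SE, adjusted p = 0.0983). Each PTTG1-/- array was below each PTTG1+/+ array for both genes, and neither passed in the main setting. MRPL12 did pass, as lower, under 2 of 18 alternatives. MRPL11, at the base of this stalk, did not pass either (log2 difference -0.15 ± 0.08 SE, adjusted p = 0.264).

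The central protuberance, which faces the head of the small subunit, held genes of either sign. Its protein MRPL40 had 9.49, 9.32 and 9.41 in PTTG1+/+ and 9.25, 9.11 and 9.09 in PTTG1-/- cells (log2 difference -0.26 ± 0.08 SE, adjusted p = 0.0641). Another, MRPL48, had 8.69, 8.57 and 8.65 against 8.80, 8.81 and 8.94 (log2 difference 0.21 ± 0.08 SE, adjusted p = 0.0994). Neither gene's arrays overlapped, neither passed in the main setting, and the differences ran in opposite directions. MRPL40 did pass, as lower, under 4 of 18 alternatives. MRPL38 and MRPL46, of the same structure, had differences of -0.11 and -0.03.

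Among proteins without a bacterial counterpart, MRPL52 (0.23, adjusted p = 0.101) and MRPL41 (0.20, adjusted p = 0.110) were above on every PTTG1-/- array. MRPL42 was below (-0.22, adjusted p = 0.0895), and none of these passed in the main setting. MRPL13 and MRPL28, which have a bacterial counterpart, were also below without overlap (-0.20, adjusted p = 0.111 and -0.20, adjusted p = 0.152). Of 18 alternatives, MRPL41 and MRPL13 passed under 2 each, and MRPL42 and MRPL52 under 1 each. Around the exit of the tunnel, where the new chain meets the inner membrane, MRPL23 had -0.21, adjusted p = 0.157, with overlap. MRPL22, MRPL24, MRPL45 and MRPL47 of the same region had -0.06, -0.05, -0.06 and -0.04. MRPL17, which also lies there, was higher (0.29, adjusted p = 0.0244), so the region held genes of either sign. MRPL2 and MRPL3, near the catalytic site, had -0.11 and -0.13, and MRPL58, a peptidyl-tRNA hydrolase built into the ribosome, -0.08.

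None of the 26 small subunit genes passed in the main setting. An unadjusted p under 0.05 was found for 3 of the 26 (MRPS9, MRPS10 and MRPS16, all lower), beside 31.6% of all genes tested. The median was -0.08 and 18 lay below 0. MRPS9, of the head, had 10.27, 10.36 and 10.32 in PTTG1+/+ and 10.10, 10.10 and 10.08 in PTTG1-/- cells. The arrays did not overlap, and among members that did not pass it had the smallest p (log2 difference -0.22 ± 0.07 SE, adjusted p = 0.0620). MRPS9 did pass, as lower, under 6 of 18 alternatives, and MRPS10 under 2. MRPS10, also of the head, had 10.78, 10.81 and 10.85 against 10.56, 10.67 and 10.63 (log2 difference -0.19 ± 0.07 SE, adjusted p = 0.101). MRPS16, mutated in an inherited respiratory chain disorder, had 9.25, 9.32 and 9.36 against 9.16, 9.19 and 8.91 (log2 difference -0.23 ± 0.09 SE, adjusted p = 0.134). Both were lower on each PTTG1-/- array. MRPS14 had the largest difference of the small subunit, from 5.52, 5.81 and 6.23 to 5.53, 5.37 and 5.62. These arrays overlapped, PTTG1+/+ replicate 3 stood highest, and the gene did not pass (log2 difference -0.35 ± 0.16 SE, adjusted p = 0.174). Its probe was dim, and its difference ranged from -0.511 to -0.160 over the alternatives. With the processed values that the authors deposited it was -0.207, beside -0.221 for MRPS9, so its rank depended on the setting. MRPS12, of the decoding center, had 0.06, adjusted p = 0.615. At the upper end MRPS26 had 0.16, adjusted p = 0.194, without overlap, and MRPS15 differed least of all 76 genes (0.00417, adjusted p = 0.975).

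Genes with and without a bacterial counterpart were also set side by side. The 46 with one had a median of -0.0997 and 34 lay below 0. The 30 without one had a median of -0.0673 and 21 lay below 0. Both members that passed are of the first kind.

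More than 1 probe was detected for 23 members, with 27 probes beside those used. The further probe had the sign of the used one in 19 of 27 cases, and all probes of a gene had 1 sign in 16 of the 23 genes. MRPL17 and MRPL19 were not among the 23, so each of these calls rests on a single probe. When probes were tested singly, 5 of 103 passed (2 higher, 3 lower), beside 12.7% of all 17357 probes (6.87% higher, 5.85% lower), and for 3 members a further probe passed where the used one did not. MRPL57 fell at its further probe (-0.51, adjusted p = 0.00886) where the used one gave -0.24. MRPL11 fell at 1 of 3 probes (-0.38, adjusted p = 0.0256), with -0.15 and -0.05 at the others. For MRPL57 and MRPL11 the probe that passed was the dimmest detected probe of the gene. Its mean log2 intensity in PTTG1+/+ cells was 5.85 for MRPL57 and 6.14 for MRPL11. MRPS33 rose at its further probe (0.35, adjusted p = 0.0384) where the used one gave -0.05. The probes of a gene thus differed in call, and for MRPS33 in direction too. MRPL30 had 0.15 and -0.24, neither past the test. Probes of MRPL4, MRPL33, MRPL47, MRPS12 and MRPS21 also differed in sign. Which transcripts each probe reads was not examined here.

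**Figure D4:**
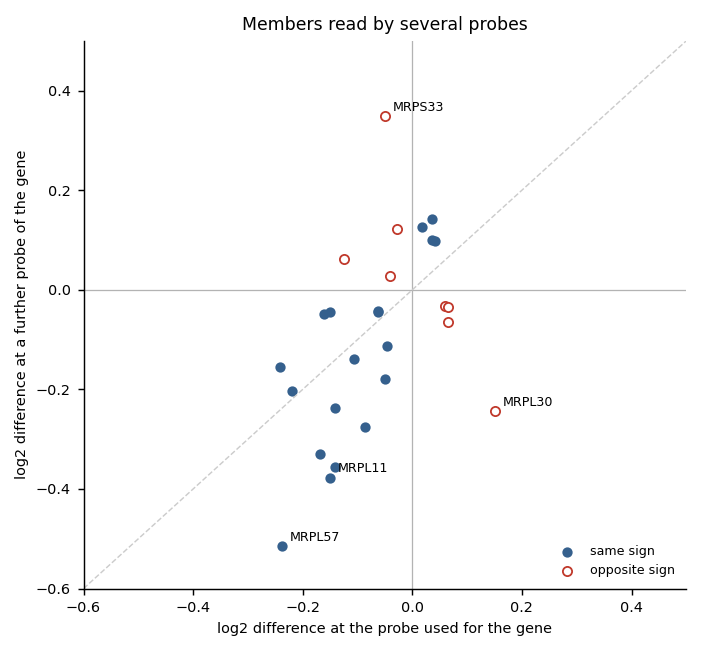
Log2 difference (PTTG1-/- minus PTTG1+/+) at 27 further probes (y axis) against that at the probe used for the gene (x axis), for 23 members, with a dashed line at equal values. Filled points, 19 of 27, have the same sign on both axes, and open points do not.

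Genes that build and serve this ribosome were taken from lists of known factors. The calls in each list stand beside 17.4% of all genes tested (9.58% higher, 7.78% lower). Of 18 assembly factors measured among 23 listed 1 rose, none fell and the median was -0.04. The gene that rose was MALSU1, which keeps an immature large subunit from joining the small one. It had log2 intensities of 11.76, 11.86 and 11.95 in PTTG1+/+ and 12.42, 12.50 and 12.82 in PTTG1-/- cells, far apart. It rose 1.65-fold (log2 difference 0.72 ± 0.11 SE, adjusted p = 0.00327) and passed under 17 of 18 alternatives. RBFA, which matures the small subunit, and NSUN4, a methyltransferase of its RNA, had -0.18, adjusted p = 0.207, and -0.13, adjusted p = 0.262, both short of the threshold.

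Of 16 translation factors listed 14 were detected in both lines, of which 1 fell and none rose, with a median of -0.10. An unadjusted p under 0.05 was found for 3 of the 14, beside 31.6% of all genes tested. GUF1, a translation GTPase related to bacterial LepA, had 7.41, 7.39 and 7.27 in PTTG1+/+ and 6.70, 6.80 and 6.69 in PTTG1-/- cells. All PTTG1-/- arrays were well below, and it fell 1.54-fold (log2 difference -0.63 ± 0.08 SE, adjusted p = 0.00105), a call made under 18 of 18 alternatives. MTRF1, of the release factor family, was detected on none of the PTTG1+/+ arrays and on all 3 PTTG1-/- arrays. It passed the filter only through the line where it was bright and so is left out of that count. Its level was at least 1.34-fold higher, set against the higher of its own signal and the dimmest detected probe on each PTTG1+/+ array, which is given as a description. Its relative MTRF1L did not pass (log2 difference -0.22 ± 0.08 SE, adjusted p = 0.0850), and its other probe had the opposite sign (0.13), so that the mean of its probes gave -0.0435.

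**Figure D5:**
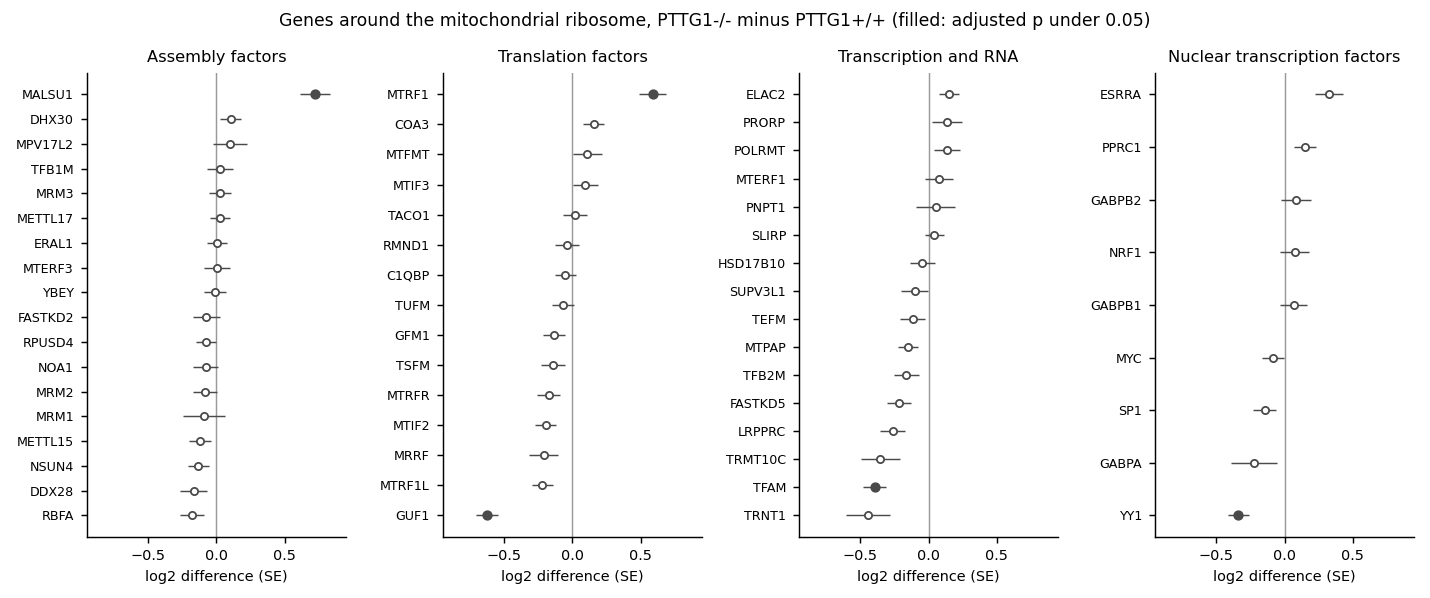
Log2 difference with its SE (x axis, PTTG1-/- minus PTTG1+/+) of assembly factors (18), translation factors (15), genes of mitochondrial transcription and RNA (16) and nuclear transcription factors of mitochondrial genes (9). Filled points, with an adjusted p under 0.05, are MALSU1, GUF1, TFAM, YY1 and MTRF1, the last of which passed the filter only through the PTTG1-/- arrays.

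Of 16 genes of mitochondrial transcription and RNA 1 fell and none rose, with a median of -0.11. TFAM, which packages mitochondrial DNA and starts its transcription, had 9.89, 9.90 and 9.95 in PTTG1+/+ and 9.56, 9.38 and 9.62 in PTTG1-/- cells. No array of one line reached the range of the other, and it fell 1.31-fold (log2 difference -0.39 ± 0.09 SE, adjusted p = 0.0142), as under 13 of 18 alternatives. LRPPRC, which stabilizes mitochondrial messenger RNAs, and TRNT1, which completes the end of transfer RNAs, were short of the threshold (-0.26, adjusted p = 0.0812 for the first and -0.44, adjusted p = 0.0912 for the second). TFB2M, a mitochondrial transcription factor, had -0.16 at its used probe, and its other probe was past the threshold when tested singly (-0.41, adjusted p = 0.0477). It was chosen after its values were seen.

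Some ribosomal subunits carry other symbols, and with OXA1L, which inserts new chains into the membrane, 4 such genes were measured. GADD45GIP1, of the large subunit, had 6.35, 6.09 and 6.31 in PTTG1+/+ and 5.73, 5.78 and 5.97 in PTTG1-/- cells. There was no overlap, and it fell 1.34-fold (log2 difference -0.42 ± 0.10 SE, adjusted p = 0.0197), as under 11 of 18 alternatives. Its probe was dim, and the size of the difference depended on the setting, from -0.503 to -0.227 over the alternatives. CHCHD1 and DAP3, of the small subunit, and OXA1L had -0.12, -0.05 and 0.04, none past the test.

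Nuclear transcription factors of mitochondrial genes included those whose motifs were searched, and 9 of 11 were measured. YY1 had 10.52, 10.54 and 10.55 in PTTG1+/+ and 10.25, 10.09 and 10.25 in PTTG1-/- cells. It was lower on all PTTG1-/- arrays and fell 1.27-fold (log2 difference -0.34 ± 0.08 SE, adjusted p = 0.0172), as under 12 of 18 alternatives, and by 0.69 on the log2 scale at its other probe. NRF1, GABPA and SP1 had 0.07, -0.22 and -0.15, none past the test, and NRF1 was detected on only 3 of 6 arrays. ESRRA, a nuclear receptor, and PPRC1, a coactivator, were short of the threshold as well (0.33, adjusted p = 0.0588 for the receptor and 0.15, adjusted p = 0.242 for the coactivator). Whether the level of any of these factors bears on the members was not tested.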

How the data were processed

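Biotinylated RNA of 6 samples was hybridised to Illumina beadchips. The authors deposited unnormalized probe intensities on a linear scale. The deposited fraction headed as a detection p rises with intensity (Spearman's rho at least 0.990 across probes), so its complement served as the detection p. The authors also deposited processed log2 values, used as an alternative. Their processing followed the manufacturer and Partek, with the normalization not given in the sources used here.

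In R 4.3.3 with limma 3.58.1, intensities were background corrected (neqc, offset 16, control level inferred from detection p), quantile normalized and log2 transformed. Lines with no probe name (12) were dropped. Probes with detection p under 0.05 on 3 or more arrays were kept (17357 of 47310). Symbols came from the platform annotation, updated to GRCh38.p14 names for 30068 probes by gene identifier and 18 by accession. For each gene the brightest kept probe was used, and 10642 genes were tested with lmFit and eBayes under Benjamini-Hochberg adjustment. Exact permutation tests covered single genes, and the scripts were tested on simulated data. The number of arrays limits the precision.

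The naming rule took members past the threshold, the 4 largest differences not past it and members whose probes disagree in sign or call. It also took up to 3 genes of each list by p, and PTTG1. Further genes were named outside this rule, the members among them after their values were seen. The members, lists and rules were chosen with earlier results of these data known. Alternatives changed the background correction, normalization, filter, probe summary, variance model or test, used the deposited values or a replicate block, or left out an array.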

Additional observations from a re-analysis of the deposited data

How the results depend on the processing

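Between 0 and 9 mitochondrial ribosomal protein genes were called, depending on the setting. The count was 9 with normexp background correction, 8 with trended and robust variances, 5 with probes tested singly (of 103), and 4 both without background correction and with the deposited values. Over all features these settings called 2274, 2265, 2208 (of 17357 probes), 2195 and 2186. Median scaling gave 0, as did leaving arrays unnormalized and the replicate block. Before adjustment, limma found 7 members at p under 0.05 with median scaling and 4 in unnormalized arrays. Median scaling gave 2801 such genes of all 10642, and unnormalized arrays 2551. With 1 array left out the number of members called was 0 to 5. It was 0 without PTTG1+/+ replicate 1, PTTG1+/+ replicate 2 or PTTG1-/- replicate 1. Without PTTG1+/+ replicate 3 only MRPL19 passed and without PTTG1-/- replicate 2 only MRPL57, whereas without PTTG1-/- replicate 3 the calls were MRPL17, MRPL3, MRPL34, MRPL52 and MRPS35. The median difference stayed below 0 throughout, at -0.0575 in unnormalized arrays, -0.0652 with the deposited values and -0.0894 to -0.0644 with 1 array left out. Over all genes the number called was 1847, and it was 1210 with median scaling (736 higher, 474 lower), 1044 in unnormalized arrays (663 higher, 381 lower), 931 with the methods' t-test and 982 to 2177 with 1 array left out. The cause of these shifts was not tested.

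Of the 76 members 21 changed sign under at least 1 alternative, none called where it did so, and their main differences were at most 0.15 in size. Values are given for the genes that the naming rule chose. With the mean of a gene's probes, MRPL30 had -0.0463, MRPS12 -0.0121, MRPS21 0.0470 and MRPS33 0.150. MRPL47 had 0.0732 without PTTG1+/+ replicate 1, 0.00446 without PTTG1-/- replicate 1 and 0.0120 without PTTG1-/- replicate 2, and MRPS33 had 0.0155 without the last of these. With 1 array left out they ranged down to -0.171 and -0.147. Arrays with the same replicate number did not deviate together (r = -0.0737, -0.00404 and -0.115), and unmatched arrays gave r of -0.0570 to 0.106. Whether same-numbered arrays share more than a number is not settled by these values. The replicate block called 1345 of all genes. MTRF1, detected on 3 arrays only, had no value under 4 of 18 alternatives.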

Other observations

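The antisense RNA of MRPL20, not counted among the members, had log2 intensities of 9.13, 9.02 and 9.21 in PTTG1+/+ and 8.88, 8.96 and 8.66 in PTTG1-/- cells. Its arrays did not overlap, and its difference of -0.29 did not pass (limma, adjusted p = 0.0957 over single probes). MRPL20 itself had -0.05 at the used probe and -0.18 at its other one.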
